A study of Mus musculus with 8 samples.

Results

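TRBV2, TRBV3, TRBV4 and TRBV5 are 4 neighbouring V genes of the mouse T cell receptor β (TRB) locus, and their use was followed through single-cell receptor libraries of CD8+ T cells from thymus, spleen and tumor. A cell was taken as a member when its primary TRB chain was named with 1 of these genes and its barcode carried no multiplet mark. The rule found 31874 of 188544 cells with a TRB chain, or 16.9%, made of 5877 cells with TRBV2, 12135 with TRBV3, 6458 with TRBV4 and 7404 with TRBV5. A developing T cell joins 1 V, 1 D and 1 J segment to make its β chain, and the bases lost and added at the joints make up most of CDR3, the loop that meets the peptide held by an MHC molecule. V genes contribute the first bases of CDR3 as well as the other contact loops. The joined chain is then tested in the thymus, where cells are kept or lost by how their receptor meets self peptide on MHC, before they reach spleen or tumor.

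The 8 samples in the labels are multiplexed sublibraries of a single Parse Evercode TCR experiment, in which combinations of well barcodes mark the cells. The series covers Pdcd1fl/fl and Pdcd1 cKO mice, the knockout being driven by CD8 E8I Cre on a C57BL/6 background, either without tumors or bearing B16-OVA or B16-F10 melanoma. The deposited tables came from 7 animals, each with a thymus table and either a spleen table (mouse-155A, mouse-155C) or a tumor table (mouse-160A to mouse-160C, mouse-164B and mouse-164C), with animal and tissue read from the name a table carries. No label ties a table to a genotype, age or tumor model, so no groups were formed, no test between groups was made, and values are given table by table. The tables held 5281 to 29894 TRB cells and the mean depth per table was 1.56 to 4.41 TRB transcripts per cell. Barcodes marked as multiplets, which were left out, made up 1.66% to 8.69% of TRB barcodes in thymus, 1.21% to 2.82% in spleen and 14% to 20.6% in tumor tables. Only receptor chains were measured, so neither Cd8a nor any other marker transcript could be checked. No primary TRB chain (0 of 188544) was named as a γ, δ or immunoglobulin gene. That field holds TRB calls, so the 0 says nothing of whether γδ T cells or B cells were present.

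Many cells of different tables were not distinct in all barcode rounds. Of the 188544 TRB cells, 46905 had the same TRB chain, the same barcodes of all rounds after the first and the same sublibrary as another cell, and differed from it only in the first-round barcode, which marks the table. For 45135 of them the match lay in another table, and for 42921 in another animal. Within each match the cell with the most transcripts was kept, and each other cell is called a lesser cell here. Where counts were equal the cell of the table listed first was kept, with thymus tables listed before spleen and tumor tables. Ties between thymus and another tissue thus removed the spleen or tumor cell, which touches each comparison of tissues without lesser cells. How often this happened was not counted. On average a lesser cell carried 1.02 transcripts, against 3.47 in all remaining cells, and 98.5% against 46.0% had 1 transcript. Lesser cells were 13.7% of all cells and 8.68% to 31.3% of a table, with the highest share in mouse-155C spleen. By gene they were 9.72% of TRBV2, 14.3% of TRBV3, 11.6% of TRBV4, 8.89% of TRBV5 and 14.1% of all other TRBV cells. The comparison of thymus with other tissues, chains found in several animals or in both tissues, and a recurrent run of residues in TRBV4 are given with and without these cells. Other results are given with all cells unless stated.

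In the GRCm39 assembly with GENCODE M39 annotation, the genes stood on the plus strand of chromosome 6 at 41024274 to 41024929 (Trbv2), 41025224 to 41025762 (Trbv3), 41036328 to 41036820 (Trbv4) and 41039266 to 41039737 (Trbv5), a block of 15464 bases. The block began 155454 bases after Trbv1 and ended 50746 bases before Trbv12-1, the next functional V gene, with 6 Trbv pseudogenes between them. Its distance to the first D segment, Trbd1, was 470397 bases. The non-coding gene 5830405F06Rik overlapped Trbv4 and Trbv5 on the same strand. The last 280 bases of the V segments were 59.0% to 65.9% identical between pairs of the 4 genes, and TRBV3 was the least alike, at 59.0% to 61.5% with the others. The ends of the V segments in the genome are shown here because the comparison of junctions below turns on them, with capitals for the 17 bases that belong to CDR3.
Trbv2: ggccacatacttcTGTGCCAGCAGCCAAGA
Trbv3: agctgtgtacttcTGTGCCAGCAGCTTAGC
Trbv4: tgctgtgtatctcTGTGCCAGCAGCTAAGA
Trbv5: agctgtctattttTGTGCCAGCAGCCAAGA
All 4 genes shared the first 12 of these bases, and Trbv2 and Trbv5 shared all 17. In Trbv4 the fifth codon read TAA, a stop codon in the frame of CDR3, where Trbv2 and Trbv5 had CAA and Trbv3 had TTA. The recombination signal that follows each V segment, in which the RAG recombinase binds a heptamer and a nonamer (capitals) either side of 23 spacer bases, read as follows.
Trbv2 signal: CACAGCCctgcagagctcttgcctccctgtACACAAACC
Trbv3 signal: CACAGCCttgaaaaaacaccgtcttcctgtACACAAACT
Trbv4 signal: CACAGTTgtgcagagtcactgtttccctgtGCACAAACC
Trbv5 signal: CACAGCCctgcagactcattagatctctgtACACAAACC
Against the consensus heptamer and nonamer the 4 genes had 3, 4, 3 and 3 mismatches, within the range of 0 to 7 (median 3.5) over the 22 functional Trbv genes of the chromosome.

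TRBV3 was the most used of the 4 genes, and the levels of TRBV5, TRBV4 and TRBV2 lay close to each other. Over the 14 tables TRBV3 had a median share of 6.62% of TRB cells, between TRBV16 (6.74%) and TRBV13-3 (5.75%). TRBV5 had a median of 3.85% between TRBV14 (4.69%) and TRBV19 (3.76%), TRBV4 3.73% between TRBV19 and TRBV15 (3.72%), and TRBV2 3.23% between TRBV15 and TRBV31 (3.07%). The ranges over tables of all these neighbours in the order overlapped. In the 7 thymus tables, with the lowest and highest in brackets, the median shares were 3.47% (3.04% to 3.77%) for TRBV2, 6.80% (6.43% to 7.07%) for TRBV3, 3.81% (3.70% to 4.04%) for TRBV4 and 4.16% (3.60% to 4.45%) for TRBV5. The thymus ranges of TRBV2 and TRBV4 overlapped only between 3.70% and 3.77%, and TRBV3 lay above the other 3 genes in every thymus table.

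Outside the thymus the shares of cells spread far more. TRBV2 was found in 2.34% and 2.53% of cells in the spleens of mouse-155A and mouse-155C, and in 1.27%, 3.56%, 5.93%, 1.43% and 2.03% of cells in the tumors of mouse-160A, mouse-160B and mouse-160C, and of mouse-164B and mouse-164C. In the same order of animals TRBV3 was found in 6.60% and 7.53% of spleen cells and in 3.24%, 6.81%, 6.28%, 4.85% and 6.20% of tumor cells. The mouse-160C tumor was the highest table for TRBV2 but not for TRBV3, and the mouse-160A tumor was the lowest table for both genes. TRBV4 was found in 3.21% and 3.45% of spleen cells and in 1.36%, 3.02%, 4.35%, 2.83% and 2.66% of tumor cells. TRBV5 was found in 2.78% and 3.00% of spleen cells and in 3.60%, 2.98%, 3.56%, 2.78% and 5.01% of tumor cells. For each gene the spleen and tumor values overlapped the thymus values. Exact Clopper–Pearson 95% intervals, which cover counting error only, ran from 0.985% to 1.61% for the smallest of these shares (TRBV2, mouse-160A tumor) and from 6.90% to 8.21% for the largest (TRBV3, mouse-155C spleen). Each gene was lower outside the thymus than in the thymus of the same animal in 6 of 7 animals, and the exception was mouse-160C for TRBV2 and TRBV4, mouse-155C for TRBV3 and mouse-164C for TRBV5. Of the 22 TRBV genes seen in every table, 27.3% were lower in at least 6 animals by cells and 4.55%, TRBV19 alone, in all 7.

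Counted by distinct chains, where a chain is a combination of V gene, J gene and CDR3 residues and each counts once per table, TRBV2, TRBV4 and TRBV5 were lower outside the thymus in all 7 animals, as were 27.3% of the 22 TRBV genes seen in every table, and TRBV3 was not. The share of TRBV2 was 3.15% to 4.09% of chains in thymus tables (median 3.64%), 2.39% and 2.40% in the spleens of mouse-155A and mouse-155C, and 2.71%, 2.35%, 2.70%, 2.32% and 2.23% in the 5 tumors in the order above. All 7 spleen and tumor values lay below all 7 thymus values, which was so for 18.2% of the 22 genes and for TRBV2 alone among the 4 described here. The ratio of the spleen or tumor share to the thymus share was 0.597 to 0.758 (median 0.662). TRBV5 was 3.83% to 4.63% of chains in thymus (median 4.44%), 2.85% and 3.07% in spleen and 3.91%, 3.09%, 3.12%, 2.78% and 2.89% in tumor. The mouse-160A tumor lay within the thymus range, and the ratios were 0.613 to 0.924 (median 0.673). TRBV4 was 3.83% to 4.31% of chains in thymus (median 4.05%), 3.36% and 3.85% in spleen and 3.61%, 3.27%, 3.08%, 3.36% and 3.23% in tumor. The mouse-155C spleen just reached the thymus range, and the ratios were 0.713 to 0.951 (median 0.799). TRBV3 was 6.45% to 7.05% of chains in thymus (median 6.89%), 6.97% and 7.05% in spleen and 6.74%, 7.11%, 8.06%, 7.20% and 7.31% in tumor, with ratios of 0.979 to 1.21 (median 1.04) and a lower share in 2 of 7 animals.

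**Figure D1:**
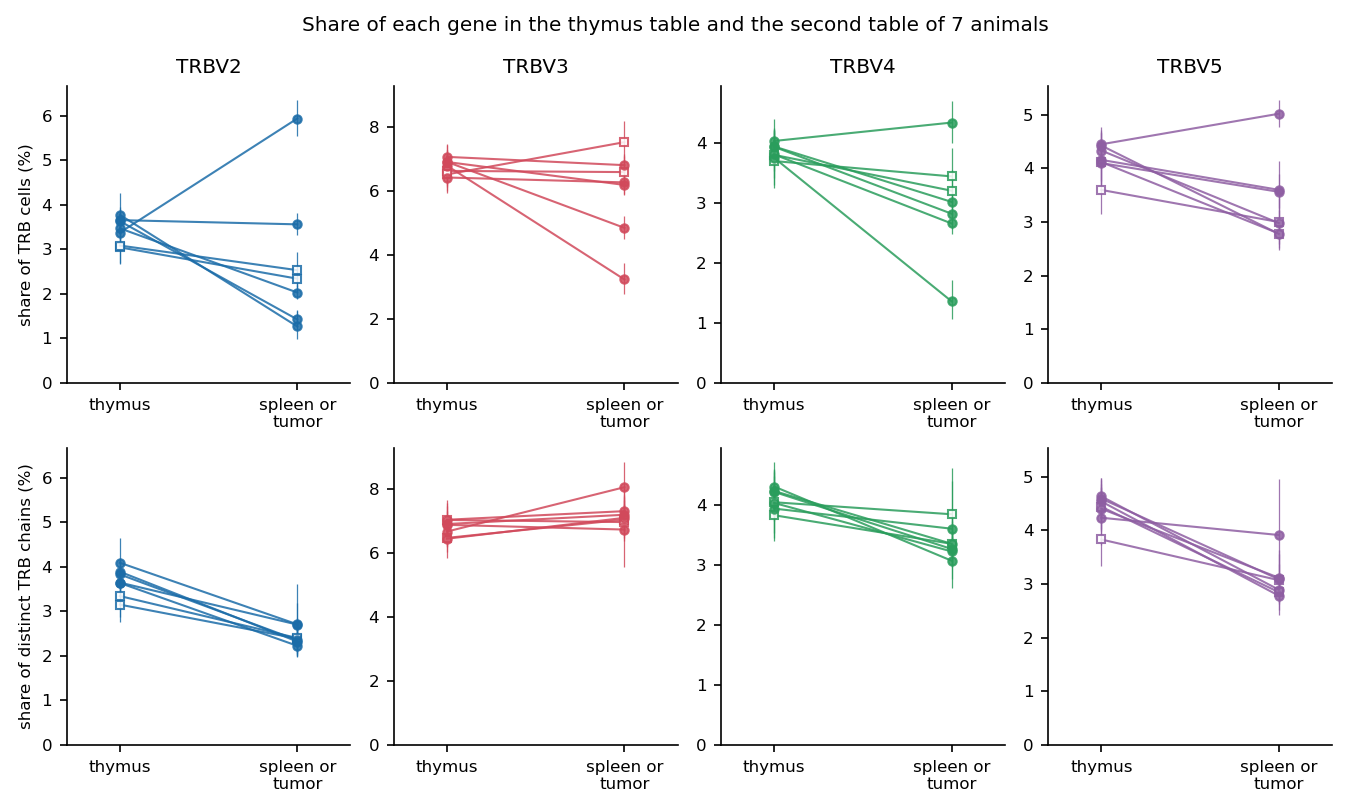
Share of TRB cells (upper row, percent) and of distinct TRB chains (lower row, percent) for each gene in the thymus table and in the spleen (open squares) or tumor (filled circles) table of 7 animals, with lines joining the tables of an animal and bars for exact 95% intervals of counting error. By cells the tumor values scatter, up to 5.93% for TRBV2 in mouse-160C, and by chains the lines of TRBV2, TRBV4 and TRBV5 all fall while those of TRBV3 do not.

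The other genes lower by chains in all 7 animals were TRBV19, TRBV20 and TRBV23, and TRBV14, TRBV15, TRBV16 and TRBV29 were higher in all 7. Together the 4 genes were 17.7% to 19.6% of chains in thymus (median 19.1%) and 15.6% to 17% outside it (median 15.8%), lower in all 7 animals. Of the other parts of the locus, TRBV1 was lower in 4 animals, TRBV12 with TRBV13 in 1, TRBV14 in 0, TRBV15 to TRBV17 in 0, TRBV19 to TRBV30 in 5 and TRBV31 in 5.

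**Figure D2:**
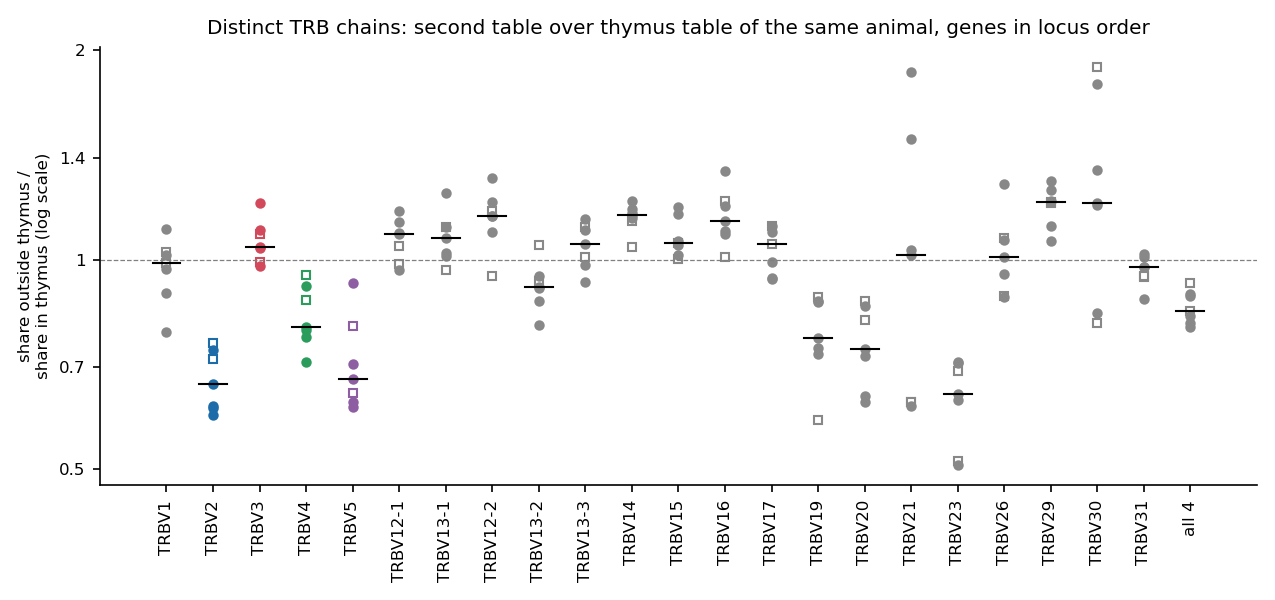
Share of distinct TRB chains in the spleen (open squares) or tumor (filled circles) table divided by the share in the thymus table of the same animal, on a log scale, for the 22 TRBV genes found in every table in the order of the locus and for the 4 genes summed. Black bars are medians over 7 animals; TRBV2, TRBV4 and TRBV5 lie below 1 in every animal, with medians of 0.662, 0.799 and 0.673, and TRBV3 has a median of 1.04.

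Without lesser cells TRBV2 and TRBV4 remained lower by chains in 7 animals, TRBV5 was lower in 6, with a ratio of 1.01 in mouse-160A, and TRBV3 was lower in 0. By cells the 4 genes were then lower in 5, 5, 6 and 6 animals. Among cells with at least 2 transcripts the median ratios by chains were 0.420 for TRBV2, 0.999 for TRBV3, 0.618 for TRBV4 and 0.451 for TRBV5. In that order the genes were lower in 7, 4, 7 and 6 animals, and TRBV5 had a ratio of 1.22 in mouse-160A. The genes also differed in transcripts per cell. In thymus tables the median of the mean depth was 3.14 transcripts for TRBV2, 4.13 for TRBV3, 2.87 for TRBV4 and 3.42 for TRBV5, against 3.80 for all other TRBV genes, and tables outside the thymus were often shallower (1.25, 1.76, 1.31 and 1.19 in spleen). Over the 22 genes, which are not independent replicates, the thymic depth and the median ratio had a Pearson r of 0.536 and a Spearman rho of 0.447. Thymic transcripts were also thinned to the mean depth of the animal's other table where that table was shallower, and left unthinned elsewhere. TRBV2 and TRBV5 were then lower by chains in 7 animals, TRBV4 in 6 and TRBV3 in 2. A cell whose TRB transcripts were not captured gives no chain, so fewer cells with a gene and less of its RNA per cell cannot be told apart.

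Over the 14 tables, the gene whose share of chains (log2 scale) was most like TRBV2 was TRBV5, with a Pearson r of 0.921, and TRBV5 was also the most like TRBV4, with r of 0.845. These values hold the step between thymus and other tables. Within the 7 thymus tables r was 0.288 and 0.237, and in the 7 tables of spleen and tumor it was 0.748 and 0.356. TRBV3 was most like TRBV12-1, the first functional V gene after TRBV5 in the locus, with r of 0.639 over the 14 tables (0.857 in thymus and 0.382 outside it). The tables share 8 sublibraries and the shares of a table sum to a whole, so these values only describe the pattern.

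Thymic chains had few cells on average for each gene. In thymus tables each chain had 1.08 to 1.16 cells for TRBV2, 1.13 to 1.34 for TRBV3, 1.10 to 1.19 for TRBV4 and 1.11 to 1.18 for TRBV5, and in spleen none of the 4 went over 1.28. Chains of all other TRBV genes had 1.18 to 1.22 cells in thymus, 1.14 to 1.20 in spleen and 1.36 to 3.46 in tumor. In the tumors of mouse-160A, mouse-160B and mouse-160C, and of mouse-164B and mouse-164C the values were 1.49, 2.07, 5.84, 1.17 and 1.28 for TRBV2, and 1.20, 1.26, 3.76, 1.60 and 1.16 for TRBV4. TRBV5 had 2.92, 1.32, 3.04, 1.90 and 2.43 cells per chain in the same tumors, and TRBV3 had 1.53, 1.31, 2.07, 1.28 and 1.19. The mouse-160C tumor was thus the highest for each gene. There, chains of at least 10 cells held 81.1% of TRBV2 cells (3 chains), 43.3% of TRBV3 cells (4 chains), 70.1% of TRBV4 cells (7 chains) and 60.8% of TRBV5 cells (7 chains), against 56.4% of the cells of all other TRBV genes.

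The 7 chains with at least 100 cells in a tumor table, a minimum chosen after the values were seen, are shown by the bases of CDR3, with capitals for the bases between the V and J parts in the deposited annotation, since they held a large part of the cells of their gene there.
TRBV2 with TRBJ2-3, mouse-160C tumor: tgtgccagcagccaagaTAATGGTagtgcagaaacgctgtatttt
TRBV3 with TRBJ1-1, mouse-160C tumor: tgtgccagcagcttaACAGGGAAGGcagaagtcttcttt
TRBV4 with TRBJ2-2, mouse-160C tumor: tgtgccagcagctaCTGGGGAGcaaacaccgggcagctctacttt
TRBV5 with TRBJ2-3, mouse-164C tumor: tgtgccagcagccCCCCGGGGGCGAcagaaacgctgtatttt
TRBV5 with TRBJ1-2, mouse-164C tumor: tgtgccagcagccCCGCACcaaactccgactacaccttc
TRBV2 with TRBJ1-4, mouse-160C tumor: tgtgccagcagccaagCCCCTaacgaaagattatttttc
TRBV2 with TRBJ2-1, mouse-160B tumor: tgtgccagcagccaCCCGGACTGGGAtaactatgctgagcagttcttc
The TRBV2 chain with TRBJ2-3 took 451 cells, 3.35% of that tumor table (exact 95% interval 3.05% to 3.66%) and 56.4% of its TRBV2 cells, and 320 of its 334 cells with a TCRα (TRA) chain carried TRAV6-5 with TRAJ13. The TRBV3 chain took 293 cells, or 34.6% of the TRBV3 cells there, of which 40 had a TRA chain. The TRBV4 chain took 221 cells, or 37.7% of TRBV4 cells, and 174 of 180 paired cells carried TRAV8D-2 with TRAJ12. In the mouse-164C tumor the TRBV5 chain with TRBJ2-3 took 386 cells, or 25.8% of the TRBV5 cells, with 64 paired, and the TRBV5 chain with TRBJ1-2 took 331 cells, or 22.1%, with 75 paired. The TRBV2 chain with TRBJ1-4 took 165 cells of the mouse-160C tumor, or 20.6% of its TRBV2 cells, with 21 paired. In the mouse-160B tumor the TRBV2 chain with TRBJ2-1 took 107 cells, and 79 of 80 paired cells carried TRAV7-4 with TRAJ27. The TRBV2 chains with TRBJ2-3 and TRBJ2-1 and the TRBV4 chain therefore had a single leading TRA partner. The most frequent partner was in 8 of 40 paired cells of the TRBV3 chain, in 9 of 64 and 19 of 75 of the TRBV5 chains with TRBJ2-3 and TRBJ1-2, and in 4 of 21 of the TRBV2 chain with TRBJ1-4.

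Chains of the 4 genes were also found in several animals. Of the distinct chains over all tables, 531 of 3457 (15.4%) were in more than 1 animal for TRBV2, 1650 of 7093 (23.3%) for TRBV3, 720 of 4092 (17.6%) for TRBV4 and 661 of 4210 (15.7%) for TRBV5, against 22.0% for all other TRBV genes. Without lesser cells these shares were 6.74%, 11.2%, 7.82% and 7.22%, against 10.3%. When at least 2 transcripts were also required they were 1.98%, 4.64%, 2.78% and 3.01%, against 4.91%. TRBV3 stayed the highest of the 4 genes in each count. Chains found in all 7 animals numbered 4 for TRBV2, 6 for TRBV3, 5 for TRBV4 and 4 for TRBV5, with 1, 4, 5 and 2 left without lesser cells and 0 for each gene when at least 2 transcripts were also required. Among those of each gene, the chain with the most cells was 1 of the large tumor chains printed above. The TRBV2 chain with TRBJ2-3 was found in 135 cells of 12 other tables, 4 to 19 in each, and all 135 had 1 transcript, against a median of 2 in its 451 cells in the mouse-160C tumor. The TRBV3 chain was in 118 cells of 12 other tables, 116 of them with 1 transcript. The TRBV4 chain was in 103 cells of 13 other tables, 101 with 1 transcript, and the TRBV5 chain with TRBJ2-3 in 102 cells of 13 other tables, all with 1 transcript. A TRA chain was found in 2.54% to 4.44% of these cells in other tables, and in 13.7% to 81.4% of the cells in the tumors where the chains were frequent.

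**Figure D3:**
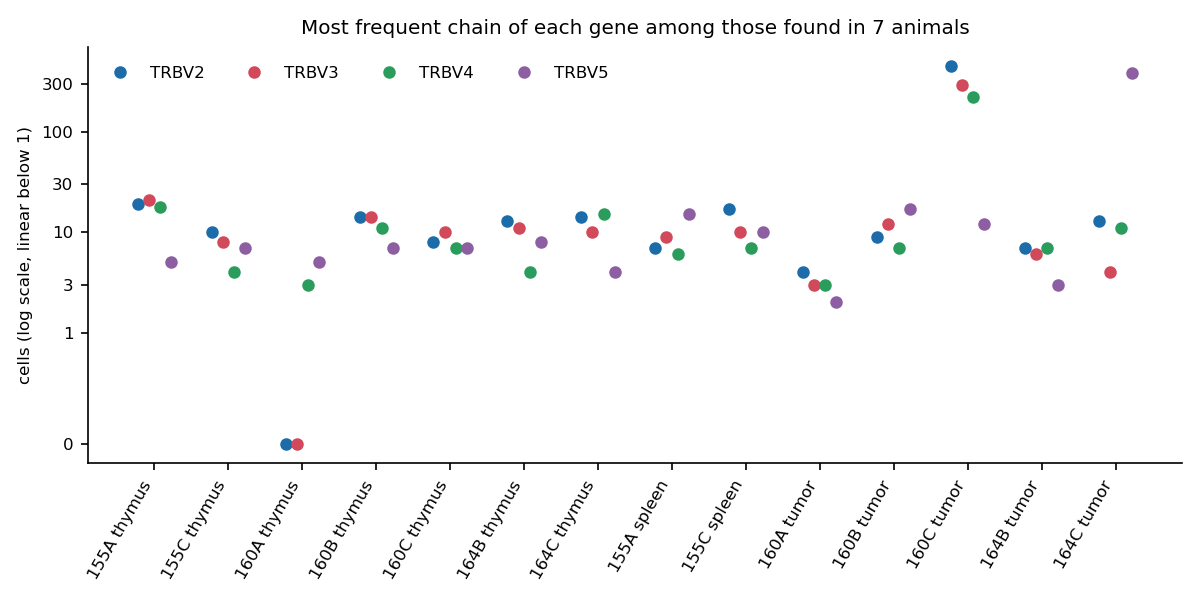
Cells of 1 chain of each gene in each of the 14 tables, the chain with the most cells among those found in all 7 animals, on a log scale that is linear below 1. Each chain has 221 to 451 cells in a single tumor table and at most 21 in any other table.

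When each thymus was set beside the spleen or tumor of its own animal, 111 TRBV2, 348 TRBV3, 150 TRBV4 and 132 TRBV5 chains were shared, summed over animals. Of the chains of the spleen or tumor, a median of 7.87% for TRBV2, 6.60% for TRBV3, 5.80% for TRBV4 and 7.07% for TRBV5 were shared, near the 7.07% of all other TRBV genes. The numbers shared were 54, 176, 81 and 84 without lesser cells, and 6, 45, 9 and 11 when at least 2 transcripts were also required. With at least 2 cells in both tissues there were 16, 31, 25 and 25 shared chains, with 11, 24, 16 and 19 without lesser cells, and 1, 7, 0 and 3 when at least 2 transcripts were also required. In 9 cases a chain had at least 10 cells in both tissues. In 5 of them it was a tumor chain described above, and cells with at least 2 transcripts were in at most 1 of the tissues. The other 4 are shown here, with capitals as before, because they had cells with at least 2 transcripts in both tissues.
TRBV3 with TRBJ1-2, mouse-160B: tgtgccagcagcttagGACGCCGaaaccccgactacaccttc
TRBV3 with TRBJ2-5, mouse-155C: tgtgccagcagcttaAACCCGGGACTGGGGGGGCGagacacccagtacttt
TRBV3 with TRBJ1-4, mouse-160A: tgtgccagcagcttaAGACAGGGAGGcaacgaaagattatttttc
TRBV5 with TRBJ2-4, mouse-164B: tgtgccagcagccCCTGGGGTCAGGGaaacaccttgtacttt
The TRBV3 chain of mouse-160B had 154 cells in thymus, 102 of them with at least 2 transcripts, and 57 cells in tumor, 33 with at least 2. Its 20 paired thymic cells had TRAV6-7-DV9 with TRAJ22 in 6 cells as the most frequent partner, and its 48 cells in other animals all had 1 transcript. The TRBV3 chain of mouse-155C had 23 cells in thymus (13 with at least 2 transcripts) and 64 in spleen (40 with at least 2). All of its 2 paired cells in thymus and 7 in spleen carried TRAV3-1 with TRAJ28. The TRBV3 chain of mouse-160A had 10 thymic and 11 tumor cells, and TRAV12-2 with TRAJ58 was in 6 of 6 and 5 of 7 paired cells. The TRBV5 chain of mouse-164B had 21 thymic cells (5 with at least 2 transcripts) and 66 tumor cells (28 with at least 2), and TRAV12-1 with TRAJ37 was in 8 of 8 and 38 of 39 paired cells. For these last 3 chains the same TRB chain with the same TRAV and TRAJ genes was therefore found in both tissues of the animal. The CDR3 of their TRA chains was not compared between tissues.

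The 4 genes differed in how much of the V end was left in CDR3. The bases of the genome sequence kept unbroken from the start of CDR3 were counted over the nucleotide chains of the annotation tables. All 17 bases were kept in 58.5% of 3565 TRBV2 chains and 37.6% of 4341 TRBV5 chains, which have the same germline end, and in 5.18% of 7970 TRBV3 chains. Over the 14 tables the ranges were 54.4% to 64.6% for TRBV2, 27.3% to 40.8% for TRBV5 and 4.39% to 6.51% for TRBV3, with no overlap between genes. Medians of thymus tables and of the other tables were alike, at 58.4% and 58.8% for TRBV2 and 37.2% and 37.1% for TRBV5. In TRBV4, 0 of 4350 chains kept 15 or more bases, the number that would retain the TAA stop. Only chains read through in frame were listed, so chains with the stop could not appear and the count says nothing of how often they form. On average 15.8 bases were kept in TRBV2, 15 in TRBV5, 13.7 in TRBV3 and 12.3 in TRBV4. Under 12 bases were kept in 15.1% of TRBV4 chains, 2.97% (TRBV2), 4.97% (TRBV3) and 2.81% (TRBV5). TRBV4 chains with 15 or more bases could not be listed, which lowers its mean and raises its share under 12. Neither value of TRBV4 can therefore be compared directly with those of the other genes.

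**Figure D4:**
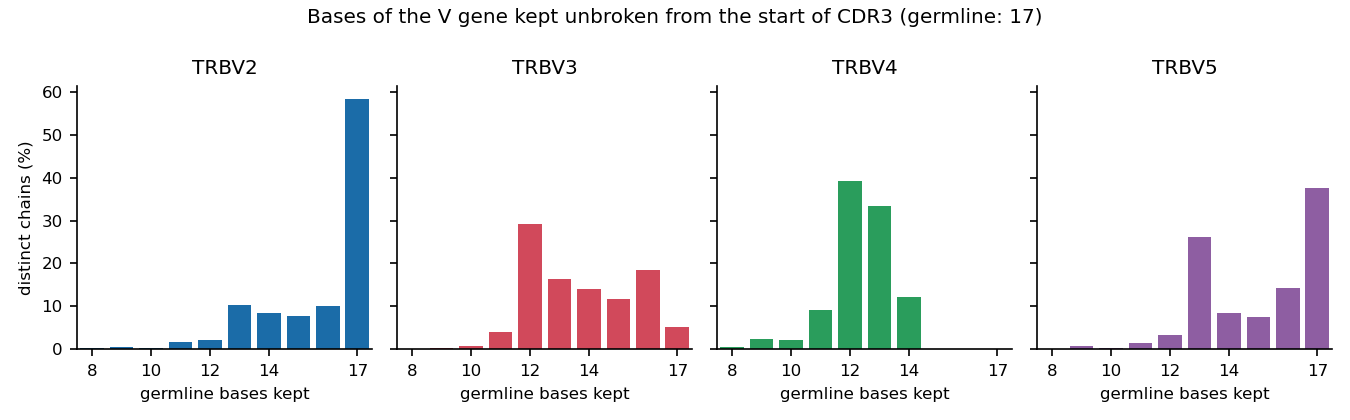
Percent of distinct nucleotide chains of each gene by the number of V gene bases kept unbroken from the start of CDR3, out of 17 in the genome. TRBV2 and TRBV5 peak at 17 bases (58.5% and 37.6%), TRBV3 at 12, and TRBV4 ends at 14.

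The fifth codon of CDR3 was still CAA in 76.4% of TRBV2 and 59.4% of TRBV5 chains, and TTA in 35.3% of TRBV3 chains. In TRBV4 it coded for tyrosine in 539 chains (12.4%), of which 528 matched the first 14 germline bases. Tyrosine codons begin with the first 2 bases of the stop codon, so each such chain with the earlier bases intact matches by definition. The match does not show whether these 2 bases came from the V gene. Tyrosine stood at this place in 0.0561% of TRBV2, 1.00% of TRBV3 and 0.276% of TRBV5 chains. A D gene was named in a median of 83.6% of TRBV4 chains (80.6% to 88.3% over tables), against 70.9% for TRBV2, 74.1% for TRBV3, 75.2% for TRBV5 and 73.3% for all other TRBV genes. The median of the mean number of bases between V and J was 11 for TRBV4 and 9.98 for TRBV2, 10.2 for TRBV3 and 10.1 for TRBV5. Only TRBV4 chains without the stop could be listed, and whether this bears on its D gene and V to J values was not tested. The V reference of the annotation ran past the germline V end for TRBV3, so its last value, and where its capitals start, are less certain. CDR3 had a median of 15 residues for TRBV2 and TRBV5 and 14 for TRBV3, TRBV4 and all other TRBV genes.

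TRBJ2-7 was the most used J gene of each, in a median of 19.5% of TRBV2, 19.1% of TRBV3, 19.1% of TRBV4 and 18.6% of TRBV5 chains, as in the chains of all other TRBV genes (18.6%). Next came TRBJ2-1 for TRBV2 (12.3%), TRBV4 (14%) and TRBV5 (14.8%), and TRBJ2-5 for TRBV3 (13%). The TRBJ2 cluster was used in a median of 64.7%, 66.0%, 69.4% and 67.1% of chains of TRBV2, TRBV3, TRBV4 and TRBV5, against 63.7% for the rest, and these ranges over tables overlapped. For single J genes, ranges over the 14 tables were set against those of all other TRBV genes pooled. This was done for 12 J genes in each of TRBV2, TRBV3, TRBV4 and TRBV5. The ranges lay apart only for TRBJ1-2 in TRBV5 (1.21% to 5.06% of chains, against 6.67% to 8.70%) and TRBJ1-6 in TRBV3 (0.264% to 1.09%, against 2.34% to 3.44%). How often they lie apart for any other single TRBV gene was not tested, so neither case can be called particular to its gene. The large TRBV5 tumor chain with TRBJ1-2 counts once per table here.

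Among TRBV4 chains a run of tyrosine, tryptophan and glycine at CDR3 residues 5 to 7 recurred. It was noticed in the data, so its counts are a description. It was in 124 of 5199 TRBV4 chains counted table by table (2.39%), and in 48 of 133518 chains of all other TRBV genes (0.0360%), with 5 in TRBV3, 1 in TRBV5 and 0 of 4244 in TRBV2, which allows up to 0.0707%. The TRBV4 chains with the run were 49 distinct chains, of which 48 used a TRBJ2 gene, and TRBD2 was named in 122 of 124 nucleotide chains. The run was in 1.36% to 3.93% of TRBV4 chains in thymus, 3.17% and 2.90% in the spleens of mouse-155A and mouse-155C, and 8.33%, 2.63%, 5.77%, 2.34% and 1.89% in the tumors of mouse-160A, mouse-160B and mouse-160C, and of mouse-164B and mouse-164C. By cells it was in 385 of 586 TRBV4 cells of the mouse-160C tumor, or 65.7% (exact 95% interval 61.7% to 69.5%), and in 1.91% to 13.9% of TRBV4 cells in the other 13 tables. Without lesser cells the run was in 2.39% of TRBV4 chains and in all 14 tables. When at least 2 transcripts were also required it was in 27 of 2269 chains (1.19%) and in 9 tables, and in 87.6% of TRBV4 cells of the mouse-160C tumor.

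**Figure D5:**
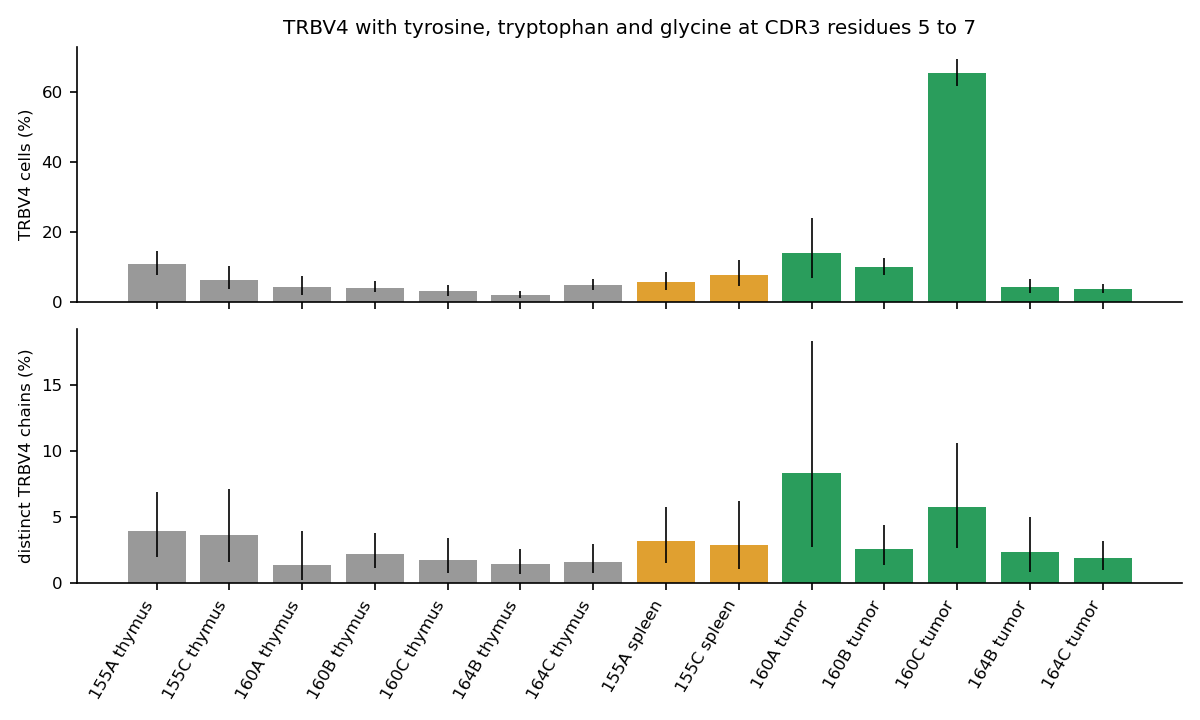
Percent of TRBV4 cells (upper panel) and of distinct TRBV4 chains (lower panel) with tyrosine, tryptophan and glycine at CDR3 residues 5 to 7 in each table, grey for thymus, orange for spleen and green for tumor, with exact 95% intervals of counting error. The mouse-160C tumor stands at 65.7% of cells, and the other tables at 1.91% to 13.9%.

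In the mouse-160C and mouse-160B tumors many cells with the run shared a TRA partner as well. Of 376 paired cells with the run, 309 (82.2%) had TRAJ12 with TRAV8-2, TRAV8D-2 or TRAV8N-2. This partner was in 9 of 2138 (0.421%) paired TRBV4 cells without the run and 248 of 64400 (0.385%) paired cells of other TRBV genes. Without lesser cells the partner was in 304 of 370 paired cells with the run. Cells of a clone are not independent, and 286 of the 309 came from the mouse-160C tumor (of 302 paired), where 6 different TRB chains had this partner. Another 20 came from the mouse-160B tumor (of 42 paired). The partner was also in 1 of 2 paired cells in the mouse-155A thymus and the mouse-160A tumor, and 1 of 8 in the mouse-164C tumor. Without lesser cells the mouse-164C tumor had the partner in 0 of 7. In the other tables no paired cell with the run had it. Counted once per distinct pair of chains in a table, the partner was in 12 of 59 pairs with the run and 9 of 2007 without it. The TRB chains are shown with capitals as before, to set their differing junctions beside the shared residues.
TRBJ2-2, mouse-160C tumor, 221 cells: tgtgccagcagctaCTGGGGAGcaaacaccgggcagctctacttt
TRBJ2-4, mouse-160C tumor, 94 cells: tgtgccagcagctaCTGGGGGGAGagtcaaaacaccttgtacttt
TRBJ2-4, mouse-160C tumor, 23 cells: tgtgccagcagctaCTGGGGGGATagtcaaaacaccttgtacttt
TRBJ2-4, mouse-160C tumor, 21 cells: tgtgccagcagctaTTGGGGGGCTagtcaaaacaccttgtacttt
TRBJ2-2, mouse-160B tumor, 24 cells: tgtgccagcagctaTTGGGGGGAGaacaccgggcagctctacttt
All 5 had a CDR3 of 15 residues and matched the first 14 germline V bases, which follows from tyrosine after intact earlier bases. The TRA chains with TRAJ12 that were most frequent among all cells with the run in both tumors, shown the same way, differed mainly in 2 bases between V and J. The TRAV8-1 form paired with another TRB chain of the mouse-160B tumor, which used TRBJ2-4, and not with those printed above.
TRAV8D-2 with TRAJ12, mouse-160C tumor, 171 cells: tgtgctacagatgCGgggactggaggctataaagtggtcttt
TRAV8D-2 with TRAJ12, mouse-160C tumor, 68 cells: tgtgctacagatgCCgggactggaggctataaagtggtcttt
TRAV8D-2 with TRAJ12, mouse-160C tumor, 13 cells: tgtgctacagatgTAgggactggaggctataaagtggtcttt
TRAV8N-2 with TRAJ12, mouse-160C tumor, 13 cells: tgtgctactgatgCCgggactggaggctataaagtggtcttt
TRAV8D-2 with TRAJ12, mouse-160B tumor, 18 cells: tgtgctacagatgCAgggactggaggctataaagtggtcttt
TRAV8-1 with TRAJ12, mouse-160B tumor, 13 cells: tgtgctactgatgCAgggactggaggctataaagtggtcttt
All but the form with TA between V and J coded for the same 14 residues. Among the chains printed, receptors of 2 animals with different bases at both junctions thus had nearly the same CDR3 residues. The TRAV8D-2 form with CA between V and J was, however, also in 11 cells of the mouse-160C tumor, with the same bases. Cells with the run, TRBJ2-2, glutamic acid as the next residue and TRAJ12 were likewise in both tumors, 18 in mouse-160B and 12 in mouse-160C. How they came to be in both was not tested. These counts and those of the TRA forms leave out lesser cells. TRAV8D-2, TRAV8N-2 and TRAV8-1 are closely related copies, and the naming of the TRA V gene is uncertain among them.

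The TRA pairing of invariant NKT cells, TRAV11 or TRAV11D with TRAJ18, which in mice goes mostly with other TRBV genes, was found in thymus in 8 of 952 paired TRBV2 cells (0.840%), 23 of 1878 TRBV3 cells (1.22%), 24 of 1187 TRBV4 cells (2.02%) and 20 of 1177 TRBV5 cells (1.70%), against 2351 of 23940 paired cells of all other TRBV genes (9.82%). Outside the thymus it was in 2 of 5773 paired cells with the 4 genes, against 56 of 32007 (0.175%) with all other TRBV genes. The MAIT pairing, TRAV1 with TRAJ33, was in 0 of 10967 paired cells with the 4 genes, which allows a share of up to 0.0274%, and in 1 of 55947 with all other TRBV genes.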

How the data were processed

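CD8+ T cells of 14 tissues were sequenced by the authors with the Parse Evercode TCR kit and assigned with the Parse Biosciences pipeline (version not given in the sources used here). For each barcode the deposited tables list its chains with counts of transcripts, and the deposited annotation tables give CDR3 bases and V identity in percent. V identity had a median of 100% for each gene. The submitters' processing notes name the build GRCm39. Annotation was used for 100% of TRB cells, except 92.7% in mouse-160B thymus, 41.1% in mouse-164B thymus and 30.4% in mouse-164C tumor.

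Shares were computed over cells or distinct chains with exact Clopper–Pearson 95% intervals (scipy 1.17.1, pandas 2.3.3, Python 3.11.15), which cover counting error only. Depth was taken from transcript counts, not read counts. Germline V ends and signals were read from GRCm39 (GENCODE M39, pysam 0.24.0). Named were the members, their neighbours in the order of shares, the genes most like them among those with a median share of at least 1%, their 2 leading J genes, leading chains of at least 10 cells outside the thymus, chains with at least 2 cells in both tissues of an animal, and the chain in most animals (the one with most cells where tied). The members and lists were chosen with earlier results of these data known, and the barcode matches and the tyrosine, tryptophan and glycine run after values were seen. Alternatives kept multiplets, weighted or filtered transcripts, required pairing, left out shared or leading chains, second TRB chains, lesser cells or a sublibrary, or thinned the thymus. Scripts were tested on simulated data. All 8 samples were without a group in the labels.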

Additional observations from a re-analysis of the deposited data

Results flagged for a closer look

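In 6 of 32 sets of tables, a single table stood farther from the rest than the 95% critical value of Dixon's test allows. Chance gives about 5% of independent sets. The sets here share tables and cells, and the run of TRBV4 was noticed in these data, so the 6 cannot be set against that rate. TRBV5 by cells was 3.60% in the mouse-155C thymus, below the other thymus tables. TRBV4 cells with tyrosine, tryptophan and glycine at CDR3 residues 5 to 7 were 65.7% in the mouse-160C tumor, above the other tumors. Cells per chain stood apart for TRBV2 in the mouse-160C tumor (5.84), TRBV4 in the mouse-160C tumor (3.76), TRBV3 in the mouse-160B thymus (1.34), which holds the 154-cell chain with TRBJ1-2, and TRBV4 in the mouse-155A thymus (1.19).

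The tables also list a second TRB chain for 23835 TRB cells, which no comparison above used. In that place stood TRBV2 in 811 cells, TRBV3 in 1373, TRBV4 in 992 and TRBV5 in 1272.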

How the results depend on the processing

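Of 376 values recomputed under other settings, 319 kept their direction and size and 57 moved. All 128 values with a sublibrary left out were unchanged within the limits set, and the counts of animals for TRBV2, TRBV4 and TRBV5 stayed between 5 and 7 in all 69 values recomputed for them. The count of animals with less TRBV3 outside the thymus, 6 by cells, was 2 by distinct chains, 2 with chains of more than 1 animal left out, 0 by chains without lesser cells, 1 by chains of paired cells, 3 by chains of paired cells without the invariant NKT pairing, and 2 by chains with the thymus thinned; the cause was not tested. With each cell counted once the median CDR3 of TRBV5 was 14 residues. With chains of more than 1 animal left out the TRBJ2 share was 61.3% for TRBV2 and 64.3% for TRBV5.

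Tables were paired by animal in the ratios and the counts of animals, with no model fitted and no p-value. Most cells had few transcripts, so chains with 1 transcript and chains shared between tables rest on the least depth. Genotype and tumor model per table were not used.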
